A study of Arabidopsis thaliana with 9 samples.

Results

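GRF3 is a growth-regulating factor, one of a small family of plant transcription factors that promote cell division and leaf growth. These proteins act with GIF coactivators, and the microRNA miR396 cleaves the transcripts of most family members, GRF3 among them. The genes described here are the protein-coding genes beside DNA that was recovered with GRF3-GFP in each of 3 chromatin immunoprecipitation sequencing (ChIP-seq) libraries. ChIP-seq sequences the DNA that an antibody brings down with a protein, and a peak is a stretch where such DNA exceeds a control. Peaks of the 3 libraries that overlapped by at least 1 bp were merged, and 960 merged regions had a peak from all 3. A gene was a member when its span, or the 1 kb on either side, held the summit of such a region. The summit is the median over libraries of the highest point of each library's widest peak. The genes were thus selected on the presence of a peak in each GRF3-GFP library. This gave 828 members of 27444 protein-coding genes, or 3.02%.

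The series holds 9 samples of whole 2-week-old Arabidopsis thaliana plants of strain Ws, grown on MS medium. In 3 groups of 3, the plants carried GFP alone (35S:GFP), GRF1 fused to GFP (35S:GRF1-GFP) or GRF3 fused to GFP (35S:GRF3-GFP). In each group the 35S promoter, which is active in most plant tissues, drove the protein, so the fusion was not limited to the tissues in which the native gene is active. An anti-GFP antibody was used throughout. The samples with GFP alone were not analysed here. The labels say neither how many transgenic lines were used nor in which cells of the whole plant the DNA was bound.

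Replicate 3 stood apart in its number of peaks. The lists held 2258, 2301 and 5944 peaks in replicates 1, 2 and 3. The share of a list's peaks that lay in regions of all 3 libraries was 44.8%, 44.3% and 16.3%. Without replicate 3, the regions found in both other libraries numbered 1100 and gave 928 genes, 818 of which were among the 828. A region with peaks from all 3 libraries has peaks from any pair of them, so that overlap follows largely from the rule. Leaving out replicate 1 gave 1643 regions and 1075 genes, and leaving out replicate 2 gave 1397 regions and 1164 genes. The sequencing depth is unknown, because the lists give no read counts. All values are the authors' fold enrichments, written here as the fold in replicates 1, 2 and 3 or as the mean ± SD over these 3 libraries. Where a library had several peaks in a region, its fold is that of the widest peak, which need not be the highest. Membership rests on the peaks themselves, so the folds are descriptions and none was tested.

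Regions beside genes had a higher median fold than those away from genes. Of the 960 regions, 590 (61.5%) had a protein-coding gene within 1 kb and 370 had none. The median of the mean folds was 7.59 over the 590 and 2.52 over the 370. Regions found in exactly 2 libraries, just outside the rule, numbered 1243, and the 588 of them beside a coding gene had a median fold of 2.39. Of the 370, 277 had an annotated pseudogene within 1 kb and 73 had no annotated gene of any kind. The members spread over all 5 chromosomes, from 2.75% of the coding genes of chromosome 1 to 3.50% of those of chromosome 2.

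**Figure D1:**
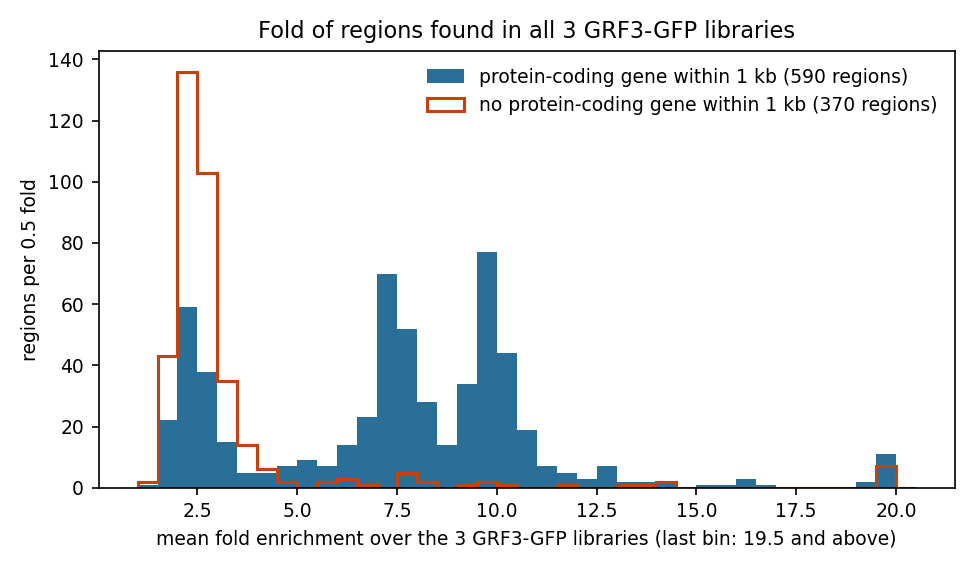
Number of regions found in all 3 GRF3-GFP libraries (y axis, per 0.5 fold) by their mean fold enrichment (x axis). Filled bars are the 590 regions with a protein-coding gene within 1 kb, which pile up at folds of 2 to 3, 7 to 8 and 9 to 10, and the outline is the 370 regions without, 333 of which lay below 4.

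The folds of the regions beside genes fell into separate groups. There were 97 regions with a mean fold of 2 to 3, only 20 at 3 to 4 and 12 at 4 to 5. Above that, 122 lay at 7 to 8, 42 at 8 to 9 and 111 at 9 to 10. Peak width split the higher folds further, as the plot of width against fold shows. The regions were therefore described in 3 classes, whose borders were chosen after the values were seen. The low class had a mean fold under 4, the narrow class a fold of 4 or more and a median peak width under 310 bp, and the wide class a fold of 4 or more and a width of 310 bp or above.

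The wide class was by far the most frequent, with 399 regions and 602 genes (72.7% of the members). Its median fold was 8.48 and its median width 421 bp. The 3 libraries lay close together, with a median coefficient of variation (SD divided by mean) of 11.4%. Replicate 3 had the highest fold in 378 of the 399 regions. The fold values recurred: the 399 regions took only 219 different values in replicate 1. The low class had 140 regions and 158 genes, with a median fold of 2.42 and a median −log10 q of 6.14, against 51.6 in the wide class.

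The narrow class had 51 regions and 68 genes. Its median fold was 11.6, its median width 255 bp and its median coefficient of variation 33.9%. Here replicate 1 had the highest fold in 37 of 51 regions and replicate 2 in 0. The summit sat in the outer 25% of the peak in 39 of the 51, against 20 of the 399 wide regions. All 51 overlapped a peak of at least 1 GRF1-GFP library, and 43 overlapped peaks of all 3. Of the wide regions 48 (12.03%) overlapped any GRF1-GFP peak, and of the low regions 48 (34.3%). The sources used here do not say whether the lists of both proteins were called against a shared control. The part of shape, library and control in the recovery of these regions was not tested.

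**Figure D2:**
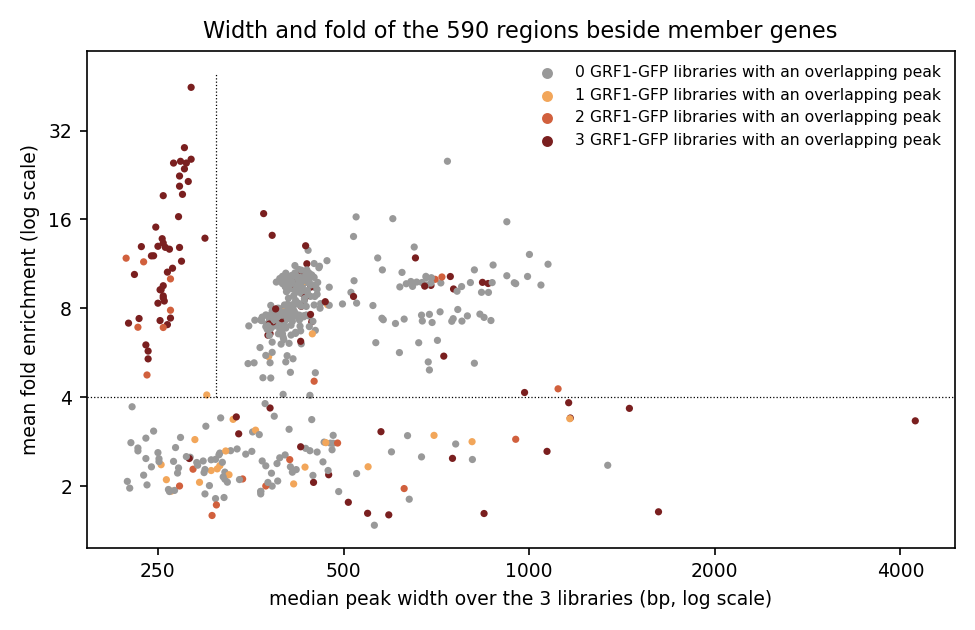
Median peak width (x axis, bp, log scale) and mean fold enrichment (y axis, log scale) of the 590 regions beside member genes, 1 point per region, coloured by how many GRF1-GFP libraries had an overlapping peak. Dotted lines mark a fold of 4 and a width of 310 bp, and the 51 narrow regions at the upper left all overlapped a GRF1-GFP peak.

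Of the 828 genes, 224 (27.1%) had a summit inside their span and 604 (72.9%) only outside it. The share inside was 42.2% without replicate 2 and 16.2% when every peak had to reach a fold of 4. Of the 604, 437 had the summit within 310 bp of an end of the gene, 82 lay beyond that and within 620 bp, and 85 farther out. A band of 280 to 310 bp alone held 173 genes (28.6% of the 604), and of the 114 regions in it 113 were wide. In the wide class 13.6% of genes had the summit inside, in the narrow class 51.5% and in the low class 67.7%. The annotation used gives no strand, so it is not known which of these ends is a gene's start. The median span was 2025 bp for members, 2533 bp for those with the summit inside and 2078 bp for all coding genes.

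**Figure D3:**
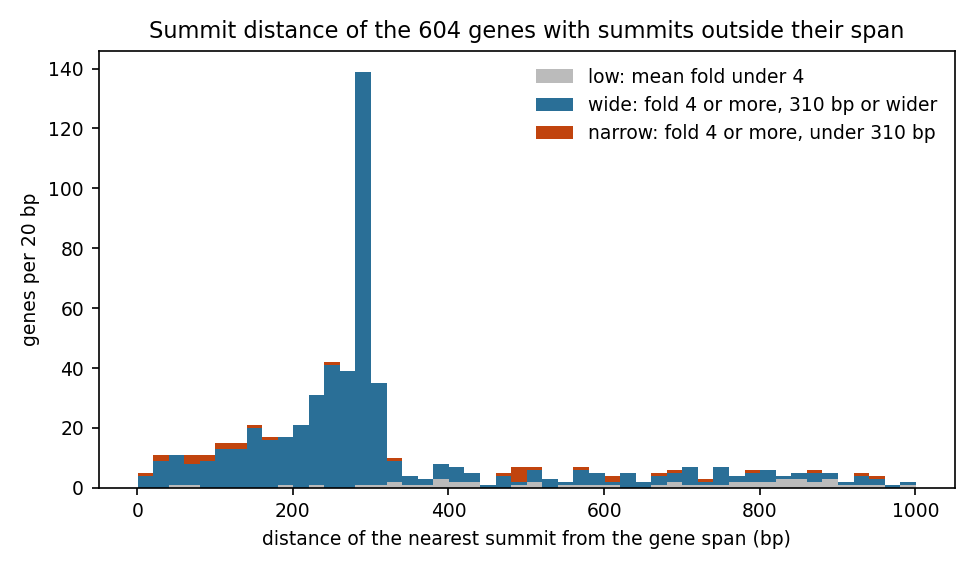
Number of genes (y axis, per 20 bp) by the distance of their nearest summit from the gene span (x axis, bp), for the 604 genes with no summit inside, coloured by class. The fullest bin, just below 300 bp, holds 139 genes, and the count drops beyond it.

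A summit often lay inside or within 1 kb of more than 1 gene, and these were then all members. Among the 590 regions, 317 had 1 member gene, 251 had 2, 19 had 3 and 3 had 4. As a result 530 of the 828 genes shared their region with another member, and for these the peak does not show which gene it belongs to. In 8 regions a pair of neighbours carried symbols of the same family. They were the P450 enzymes CYP76C1 and CYP76C2, CYP71B25 and CYP71B4, and CYP71B31 and CYP71B30P, the fatty acid elongases KCS17 and KCS18, the receptor-like kinases CRK30 and CRK31, the cation exchangers CHX27 and CHX26, the cell cycle activators CDC20.2 and CDC20.1, and sks14 and sks12, named for similarity to the growth protein SKU5.

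The regions with the best fold ranks over the 3 libraries held genes of varied kinds. The first was beside AT5G37240 (chr5:14739583-14739866, TAIR10, as all coordinates here), with folds of 60.2, 29.4 and 44.8 and the summit 130 bp outside the gene. The second lay inside AGL14 (chr4:7146451-7146729), a MADS-box factor of root development, with folds of 37.3, 18.8 and 27.9. SECA2, a subunit of a protein translocase of the chloroplast, was also among the best ranked, with 36.1, 15.4 and 23.98 at chr1:7599739-7600014. In each of these replicate 1 was highest and replicate 2 lowest, the order seen in most narrow regions.

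OVA2, an aminoacyl-tRNA synthetase needed for ovule development, had folds of 21.9, 25.4 and 28.2 with the summit 279 bp outside it (chr5:19882988-19883878). Its region was of the wide class, with a median peak width of 737 bp, had no GRF1-GFP peak, and was highest in replicate 3 and lowest in replicate 1, unlike AGL14. UGT73C2, a glycosyltransferase, had 29.96, 14.8 and 22.6. The region inside CRN (CORYNE), a pseudokinase of the pathway that limits the shoot meristem, had 27.7, 14.5 and 20.1, and its summit was also 740 bp from SFC, which is needed for continuous leaf veins. GulLO4, an oxidase of gulonolactone, had 15.4, 15.3 and 18.3. The other regions among the best 15 held AT1G27880 and AT1G27870, AT3G23460 and AT3G23470, AT3G50180, AT1G13230, AT5G47540 and AT5G47530, AT1G09910 and AT1G09920, AT2G34317, AT5G56480 (beside GulLO4), and AT4G24310 and AT4G24300. To these, and to AT5G49040 and AT5G49050 beside OVA2, AT2G36770 beside UGT73C2 and AT5G13295 beside CRN, the annotation gives no symbol. The mean folds of the 15 regions ran from 16.1 to 44.8. Of the 15 regions, 12 had a median peak width under 310 bp, and the same number overlapped peaks of all 3 GRF1-GFP libraries.

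Of the growth-regulating factor genes themselves, only GRF3 was a member. It held a pair of regions inside its span, chr2:15270300-15270737 with folds of 10.6, 10.9 and 16.2 and chr2:15271545-15272636 with 9.44, 10.2 and 14.2. The first was also 408 bp from SBE2.1, a starch-branching enzyme. The plants carried a GRF3 transgene, and the files do not separate its DNA from the resident gene, so its part in these peaks was not tested. Of the 9 growth-regulating factor genes, 7 had no peak summit within 1 kb in any library, GRF1 had 2 peaks in replicate 3 alone, and the 3 GIF genes and MIR396a and MIR396b had none.

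To describe what the members do, 47 lists of gene symbols were matched to the annotation. Members with a symbol numbered 270 (32.6%), against 37.8% of all coding genes, and the other 558 are known by locus only. In all, 143 members were in at least 1 list, at 129 regions, which is 2.48% of the 5763 list genes and below the 3.02% of all coding genes. Leaving out 9 places where a symbol belongs to an unrelated gene left 138 members. With these left out, the share of members was above 3.02% in 16 lists and 6 lists had no member. Those 6 were ribosomal proteins, RNA splicing, MAP kinases, phosphatases, homeobox factors, and glutathione transferases with peroxidases. Some of these absences depend on matching symbols alone. With synonyms matched as well, RNA splicing had 1 member, glutathione transferases with peroxidases 1 and phosphatases 2. Ribosomal proteins and MAP kinases still had 0. Where a list is small, its share moves by several percent with 1 gene, and no list was tested. The counts of single lists, given below as matched by symbol, also depend on the libraries asked for. Of the 17 lists with at least 4 members, 9 changed by more than 1.5 times when replicate 2 was left out, and 16 when the summit had to lie inside the gene.

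**Figure D4:**
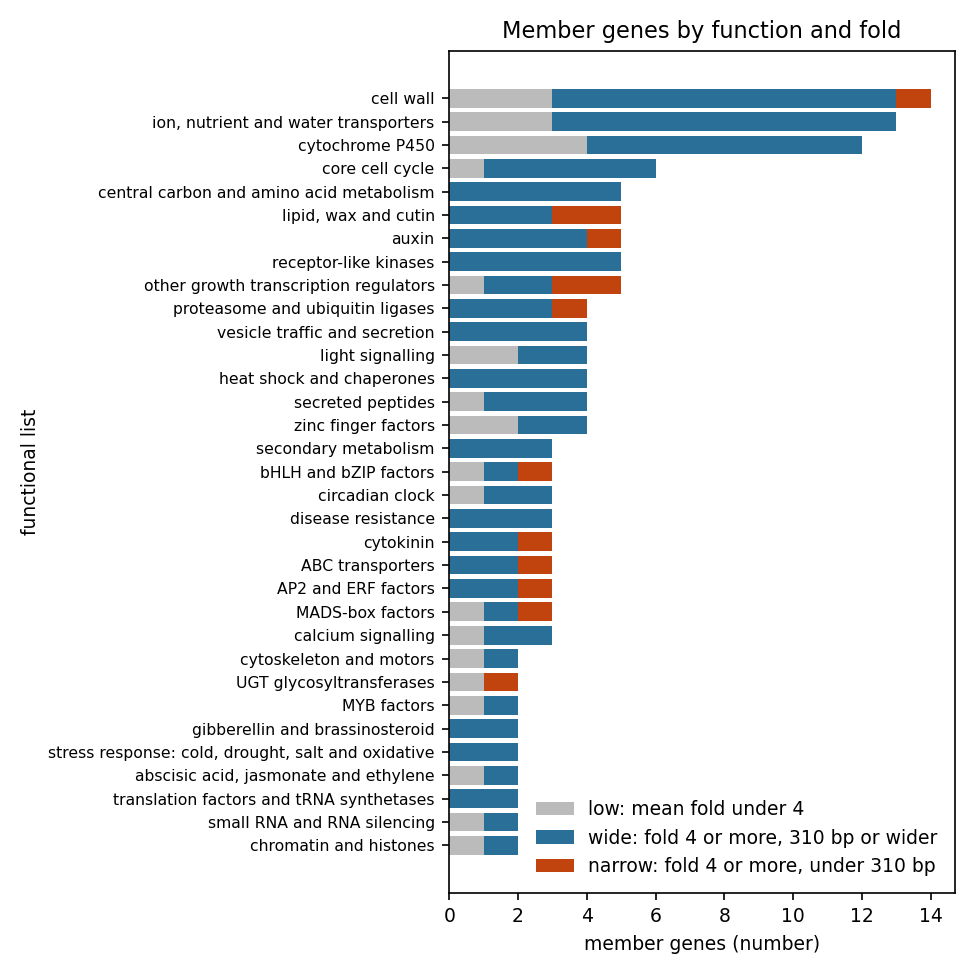
Number of member genes (x axis) in each functional list with at least 2 members (y axis), after leaving out unrelated genes of the same symbol, coloured by class. Cell wall genes (14), transporters (13) and P450 enzymes (12) were the most numerous, and most list members were of the wide class.

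Transcriptional regulators of growth and development were among the members in every class. Beside the 3.02% of all coding genes, other growth regulators gave 5 of 239 (2.09%) and MYB factors 2 of 155 (1.29%). WRKY factors gave 1 of 69 (1.45%), NAC factors 1 of 99 (1.01%) and MADS-box factors 3 of 99 (3.03%). Zinc finger factors gave 4 of 122 (3.28%), bHLH and bZIP factors 4 of 115 (3.48%), and AP2 and ERF factors 3 of 81 (3.70%). The 4 bHLH and bZIP members include ZIP12, a gene of the transporter list that only shares a symbol. Without ZIP12 the bHLH and bZIP list had 3 members. LBD4, a factor of the lateral organ boundary family, had folds of 10.5, 10.1 and 10.4, with all 3 libraries alike. SPCH (SPEECHLESS), which starts the stomatal lineage, had 7.85, 9.15 and 10.6, and its summit was 146 bp outside the gene. ESR1, a factor that promotes shoot formation, had 7.45, 6.72 and 8.54 and MNP, a zinc finger factor of the shoot apex and flower, 7.49, 6.47 and 7.99. LOB, which marks organ boundaries, was in the low class with 2.74, 1.92 and 2.37, as were GATA5 (1.83 ± 0.168) and AGL93 (2.06 ± 0.415).

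Among factors with narrow regions, WRKY21 had 13.04, 7.23 and 21.2, NAC067 had 14.9, 8.56 and 12.7 and BZIP28, a membrane-bound factor of the response to unfolded proteins, 18.96, 10.2 and 16.1. The summit at BZIP28 was 791 bp outside it, nearer to AT3G10810. MYB33, a factor of the gibberellin-linked GAMYB type, had 6.47, 7.33 and 8.11 at a region shared with GPAT7, and MYB83, a switch for secondary walls, only 2.16, 2.92 and 3.83. The remaining factors in the lists were HRD (9.48 ± 1.56), ZFP5 (7.32 ± 1.09), known for trichome formation, and AGL89 (7.96 ± 0.722). The region of AGL89 was also that of the cell cycle gene CDC20.5.

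At several regulators replicate 3 was far above both other libraries. SEU and LUG, which together form a corepressor known from floral organ identity, had 2.84, 2.60 and 18.2 and 3.13, 2.94 and 14.6. ARF19, an auxin response factor, had 3.58, 2.24 and 15.6. ATS, a factor of the ovule integument, had 4.89, 6.60 and 14.8. At SEU, LUG and ARF19 the other libraries were below 4, the border of the low class, and the SD was close to or above the mean (7.88 ± 8.94, 6.89 ± 6.67 and 7.13 ± 7.33). Replicate 3 was at least 2.5 times both others at 8 of the 590 regions. Besides those of SEU, LUG and ARF19, they lay at AT2G44340, AT3G09690, FBW2, LRX3 and PFT1 (MED25, a subunit of the Mediator of transcription), a set picked out after the values were seen. PFT1 had 2.12, 1.71 and 7.30.

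**Figure D5:**
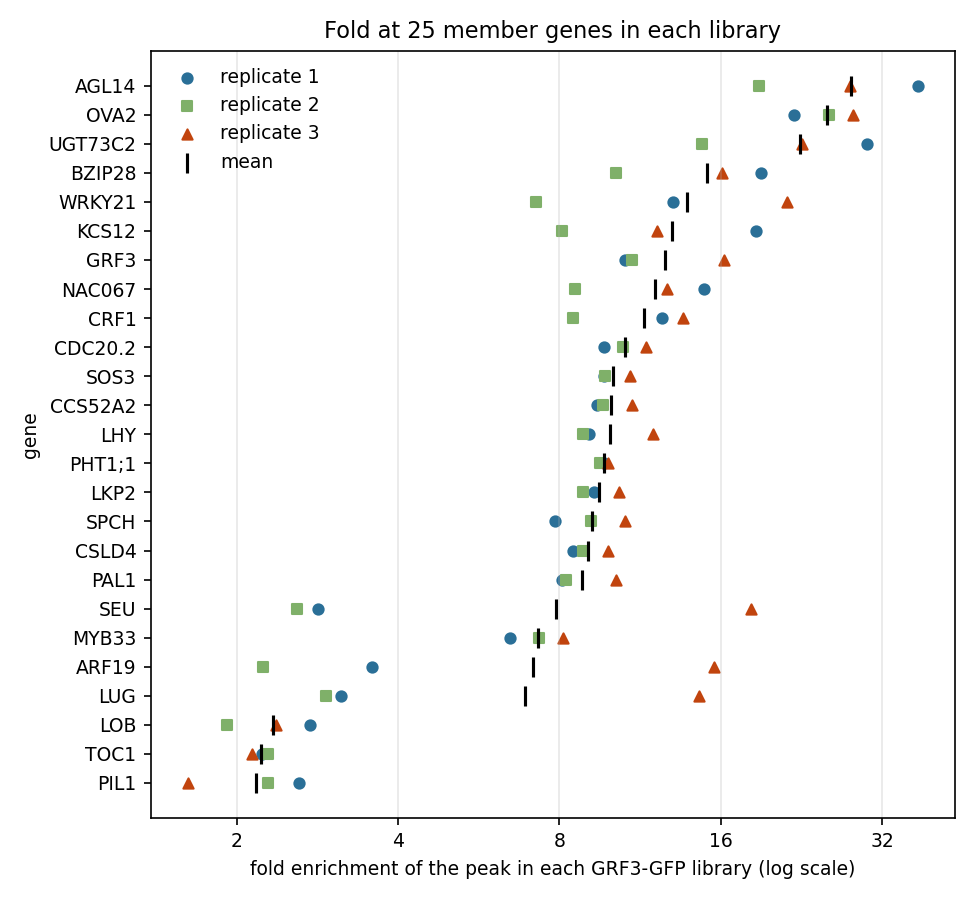
Fold enrichment (x axis, log scale) in each of the 3 GRF3-GFP libraries at 25 member genes (y axis), with circles, squares and triangles for replicates 1, 2 and 3 and a bar at the mean. At SEU, LUG and ARF19 replicate 3 lies far to the right of both others, at AGL14 and UGT73C2 replicate 1 is highest, and at most genes with a mean near 8 to 10 the 3 points are close.

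The clock list had 4 members of 32 genes (12.5%), of which EPR1 is an extensin of the same symbol and not the clock gene. Without EPR1 it had 3. The matched count was 2 when every peak had to reach a −log10 q of 5, and also with a fold of 4. LHY, a morning-expressed MYB repressor, had 9.08, 8.86 and 11.9 and LKP2, a blue-light F-box protein, 9.26, 8.86 and 10.4, both in the wide class. TOC1, the evening repressor that opposes LHY, had 2.23, 2.29 and 2.14. Each had its summit inside the gene, and TOC1 lay well below the other clock genes in all 3 libraries. Light signalling had 4 of 76 genes (5.26%). FRS5 and FRS6, relatives of the far-red factor FAR1, had 9.06 ± 0.712 and 7.55 ± 0.955, whereas the bHLH factor PIL1 and the B-box factor BBX18 had 2.18 ± 0.508 and 1.93 ± 0.208.

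Of 90 core cell cycle genes 6 (6.67%) were members. CDC20.1 and CDC20.2, activators of the anaphase-promoting complex, which marks mitotic proteins for destruction, shared a region with folds of 9.69, 10.5 and 11.6. CCS52A2, another activator of it, known for endoreduplication, had 9.38, 9.64 and 10.9. CDC20.5 had 7.96 ± 0.722, at a region shared with AGL89, and CDC27a, a subunit of the complex, 7.41 ± 1.05. All of these were in the wide class. CDKC2, a kinase of transcription, had only 2.15 ± 0.227. SKP2A, an F-box protein of cell cycle factors, had 7.64 ± 0.795 at a summit 925 bp away and 304 bp from YUC11.

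Hormone genes were found on the sides of synthesis, breakdown and response, with list shares of 1.21% to 3.57% beside the 3.02% of all coding genes. The auxin list had 5 of 140 genes (3.57%), and 10 without replicate 2 (1164 members in all, against 828). In it NPY2, which acts with auxin in organ formation, had 9.28, 10.7 and 11.7. YUC11 and NIT1, enzymes linked to auxin synthesis, had 7.64 ± 0.795 and 7.29 ± 0.989, and ARF23 had 9.71 ± 1.14. For cytokinin (3 of 103, 2.91%), the response factor CRF1 had 12.4, 8.47 and 13.6, the synthesis enzyme IPT4 6.73, 6.91 and 8.32 and the purine permease PUP9 9.94 ± 0.328. The gibberellin and brassinosteroid list had 2 of 74 genes (2.70%). BAS1, which inactivates brassinosteroids, had 7.57 ± 1.29 and GA3OX3, a gibberellin synthesis enzyme, 7.11 ± 0.697. The remaining auxin member was ARF19, described above. CRF1 and ARF19 were narrow and lowest in replicate 2, and the other members of these auxin, cytokinin, gibberellin and brassinosteroid lists were in the wide class. The list of abscisic acid, jasmonate and ethylene had 2 of 165 genes (1.21%), PYL13 and NCED2. The abscisic acid receptor PYL13 had 7.38 ± 1.002, the synthesis enzyme NCED2 2.49 ± 0.306 and the exporter ABCG25 9.42 ± 1.56. All but NCED2 were above a mean fold of 7.

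Cell wall genes numbered 16 of 407 (3.93%), of which PGI1 and GPAT7 have other functions. The list had 27 without replicate 2 (1164 members in all, against 828). LAC14 and LAC5, of the laccase family known for lignin polymerisation, had 8.98, 10.2 and 11.8 and 9.08, 10.1 and 11.4. RHM1, which makes rhamnose for pectin, had 10.01 ± 1.82, the arabinogalactan protein AGP3 9.81 ± 0.877 and the cellulose synthase-like CSLD4 9.06 ± 0.712, which shared its region with FRS5. The pectin glycosyltransferase GAUT7 lay in a narrow region with 12.5, 5.22 and 7.63. Most wall genes were thus in the wide class, with libraries close together. AGP22 and IRX6, a COBRA-like protein of secondary walls, were at 7 to 8, and the wall proteins AGP31 (2.79 ± 0.332) and EXT12 (2.72 ± 1.05) were in the low class. LRX3, a leucine-rich extensin, had 1.73, 3.12 and 7.96.

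Lipid genes (5 of 159, 3.14%) were the elongases of very long chain fatty acids and GPAT7, an acyltransferase. KCS12 had 18.6, 8.08 and 12.1 and KCS3 12.7, 6.86 and 8.22, both narrow and with replicate 1 highest. KCS17 and KCS18 (FAE1, the elongase of seed oil) shared a wide region at 7.65, 7.88 and 8.86. The SD over libraries was 5.31 and 3.03 at the narrow regions and 0.645 at the shared wide region.

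P450 enzymes, which oxidise hormones, toxins and secondary compounds, were 12 of 227 genes (5.29%). The list had 19 without replicate 2 (1164 members in all, against 828). CYP76C1 and CYP76C2 shared 10.5, 10.5 and 12.5, CYP71B25 and CYP71B4 shared 9.89, 9.64 and 12.04, CYP82G1 had 10.3 ± 0.605 and CYP71B31 10.3 ± 1.57. The other 6 members ran from 2.11 to 7.69, with 4 in the low class. In secondary metabolism, PAL1, the entry enzyme of phenylpropanoids, had 8.07, 8.22 and 10.2, the lignin dehydrogenase CAD2 9.27 ± 1.14 and GGPS3 10.4 ± 1.08. The second glycosyltransferase of the UGT list, UGT72E3, had 2.23 ± 0.808, far below UGT73C2. Matching synonyms as well added AT5G54010 and UF3GT to that list, and UF3GT had 2 regions with mean folds of 10.1 and 8.32.

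Transporters gave 14 of 360 genes (3.89%), and 22 without replicate 2 (1164 members in all, against 828). The 14 include PHO2, a ubiquitin-conjugating enzyme of phosphate signalling that the pattern also matched. INT3, an inositol transporter, had 9.89, 9.25 and 10.9. PHT1;1, the main phosphate uptake transporter of roots, had 9.69, 9.54 and 9.85, and the amino acid permease AAP2 9.30 ± 0.887. Among cation exchangers chx28, CHX24 and the pair of CHX26 and CHX27 had 8.83 ± 0.456, 8.21 ± 1.27 and 7.21 ± 0.693, while CHX20 had 2.07 ± 0.283. CHX20 was thus the low one among the exchangers, in all 3 libraries. NRT2.3, a nitrate transporter, had 7.23 ± 1.24. Of 138 ABC transporters 3 (2.17%) were members: ABCG25, ABCI1 (9.76 ± 0.906) and ABCC5, which moves phytate into vacuoles and lay in a narrow region at 13.9, 8.34 and 10.5.

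Calcium and salt signalling contributed SOS3, the calcium sensor of salt tolerance, with 9.69, 9.73 and 10.8, the channel CNGC19 with 7.44 ± 0.236 and the kinase CIPK22 with 2.61 ± 0.483. Receptor-like kinases were 5 of 205 (2.44%). PERK4 had 9.79, 10.2 and 11.9, ANX2, which keeps pollen tubes intact, 8.77, 9.44 and 11.6, WAK3 8.92 ± 1.83, and CRK30 and CRK31 shared 7.54 ± 0.295. The defensins PDF1.3, PDF2.1 and LCR68 lay between 7.60 and 7.85, and PDF2.1 and LCR68 shared a summit. RTFL12, a small peptide gene, had 2.72 ± 1.05 at the region of EXT12. The lists of calcium signalling (3 of 193, 1.55%), disease resistance (3 of 172, 1.74%) and secreted peptides (4 of 251, 1.59%) were below 3.02%.

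Protein folding and turnover were represented by Hsp70b (8.78 ± 0.707), the mitochondrial mtHsc70-1 (9.53 ± 1.27), the chaperonin Cpn60beta3 (7.52 ± 0.798), ERD2, here a heat shock protein (7.25 ± 0.460), and the proteasome subunit PBE1 (8.003 ± 0.772). The chaperones and PBE1 were all in the wide class, with the spread between libraries small beside the mean. UBQ7 had 6.56 ± 1.16 and the deubiquitinase UBP13 7.66, 3.66 and 5.86. In carbon metabolism SBE2.2, a second starch-branching enzyme, had 8.11 ± 0.784, PGI1, which interconverts sugar phosphates for starch, 10.8 ± 0.717, the invertase CINV2 9.87 ± 1.15 and DPE1, an enzyme of starch breakdown, 9.59 ± 0.431. The antenna protein LHCB2.1 had 9.38, 9.64 and 11.9 and was the sole member of 145 photosynthesis genes (0.690%). Heat shock and chaperones gave 4 of 95 genes (4.21%) and carbon and amino acid metabolism 5 of 250 (2%). The proteasome and ubiquitin ligase list gave 5 of 217 (2.30%), with PAB3 counted through a shared symbol.

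Vesicle traffic gave EXO70C1 (9.92 ± 0.619), RABG3A (8.12 ± 1.03), the retromer subunit VPS35A (7.03 ± 0.308) and GN (GNOM), which sorts auxin carriers (6.56 ± 0.358). All of these traffic genes lay in the wide class. Their list had 5 of 259 genes (1.93%), with the heat shock gene ERD2 counted through a shared symbol. OVA9, another aminoacyl-tRNA synthetase, had 9.41 ± 0.879. RIC2, an effector of ROP GTPases, had 9.80 ± 1.38, and the formin FH3 shared a low region at 2.42 ± 0.273 with SDG2, a histone methyltransferase. SDG21 had 9.81 ± 0.695, the primase subunit POLA3 6.96 ± 0.465, the RNA helicase HEN2 6.74 ± 0.675 and NRPD2B 6.27 ± 0.237. AGO3, an Argonaute protein, had 1.53, 1.52 and 1.37, and EMB2820, named for embryo-defective mutants, 1.37, 1.67 and 2.14, both at the lower end of all members. Beside the 3.02% of all coding genes, the lists of cytoskeleton (1.24%), chromatin (1.35%), replication (0.98%), flowering (0.952%) and embryo-defective genes (0.515%) were lower. Those of translation (4.88%) and small RNA (5.26%) were higher.

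A further 127 members had a symbol but were in no list, and those named next were chosen after their values were seen. Protein import into organelles was represented by TOM20-2 (10.2 ± 1.25), TIM17-1 (9.06 ± 1.15), TOC120 (9.94 ± 0.929) and, in the low class, TIC55-II (2.43 ± 0.357). Besides PFT1, the Mediator subunits NRB4 and REF4 had 9.10 ± 1.31 and 6.73 ± 0.983. The ferroxidase LPR1, by which roots sense low phosphate, had 10.9, 3.92 and 6.96, its relative LPR2 2.71, 2.37 and 2.19 and the acid phosphatase PAP10 1.92 ± 0.170. The growth-promoting bHLH factor HBI1 had 10.3 ± 1.06, and HLS1, which is needed for the apical hook, 10.4, 6.28 and 8.25 in a narrow region. DAR3, related to the organ size regulator DA1, had 7.49 ± 0.763, and SQN, a cyclophilin that acts with Argonaute proteins, 16.1, 9.04 and 10.98.

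Most members, 772 of 828, had 1 region, while 54 had 2, 1 had 3 and 1 had 5. The last was AT2G08986 and the gene with 3 was its neighbour AT2G07981, both between 3 and 4 Mb on chromosome 2. Their best regions had folds of 2.34, 2.56 and 2.54 and 2.32, 2.63 and 2.48, low values beside a median −log10 q of 1719 and 804. Of the 140 low regions 14 had a median −log10 q above 100, and 11 of these were on chromosome 2. The next genes by region number and fold were GulLO4, AT5G16285 (15.7 ± 1.41), GRF3 and AT2G16030 (12.2 ± 1.51).

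At the border of the 1 kb rule, the genes on either side differed by few bases in distance, and their folds overlapped. Just inside were AT4G29690 at 990 bp with a mean fold of 9.39, AGD6 at 981 bp with 2.07 and LAC5 at 971 bp with 10.2. Just outside were AT4G00953 at 1004 bp with 5.20, EMB1030 at 1006 bp with 16.7 and SUB at 1007 bp with 10.3. SUB is a receptor-like kinase of tissue patterning. The lowest mean fold of a member was 1.47, at AGO3, and the highest 44.8, at AT5G37240.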

How the data were processed

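DNA bound in whole plants was measured by ChIP-seq. The submitters' processing notes name FastQC, Trimmomatic, Bowtie2 and MACS2, and the build TAIR10, without versions, roles or settings. The deposited lists, 1 per library, give for each peak a fold enrichment (a ratio), its p-value and q-value (each as −log10), and a score equal to 10 times the −log10 q, cut to a whole number. The control behind the fold and the depth of each library are not given in the sources used here, so no interval was computed. Scripts (Python 3.11.15, pandas 2.3.3, numpy 2.4.6) merged peaks and took the summit and fold of the widest peak per library. A RefSeq gene table of assembly TAIR10.1 was used for names and neighbouring genes only. The steps were checked on simulated peaks. The members, lists and tests were chosen with earlier results of these data known. Lists matched a gene's symbol alone.

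Genes were named by rule: those at the 15 regions of best mean fold rank, the 6 highest in each list, the 6 with the most regions, the 3 on either side of the 1 kb border, and all GRF, GIF and miR396 genes. Other names were chosen after their values were seen. Replicates are separate samples in the labels, and nothing says whether their DNA was prepared separately. No promoter or protein sequences were used here.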

Additional observations from a re-analysis of the deposited data

How the results depend on the processing

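The count of member genes stayed within 1.5 times of 828 under stricter peaks, stricter overlap, lists of equal length, another summit, the 500 bp window and the nearest-gene rule (569 to 828), and moved with the summit inside the span only (224) and the 3 kb window (1272). Members in at least 1 list were then 51 and 231, against 143. Asking for a fold of at least 4 in every peak left 460 regions of 960. The median fold over member regions then rose from 7.59 to 9.10, a rise that follows from the filter itself. The inside-only rule lowered that median to 4.84. With each library's own summit, the share of members with the summit inside the gene had an SD of 0.221 percentage points. This SD reflects the placing of the summit only, not which regions a library holds. The share, 27.1% in the main result, moved by more than this SD under each alternative. It was 20.14% at a −log10 q of at least 5, 16.2% at a fold of at least 4, 26.6% with a base common to all 3 libraries, 22.9% with 50% reciprocal overlap, 22.6% with lists of equal length, 27.3% with the summit of the highest peak, 31.3% within 500 bp, 17.6% within 3 kb and 38.0% with the nearest gene only. The cause was not tested, beyond the fewer or more genes each window admits.

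Leaving out 1 library, which asks for a peak in both others, gave 1100 to 1643 regions, 928 to 1164 member genes, 29.7 to 42.2% with the summit inside, a median fold of 5.84 to 6.92 and 174 to 231 members in at least 1 list. The regions numbered 1643 without replicate 1, and 231 members were in at least 1 list without replicate 2. Of the 17 lists with at least 4 members, the count moved by more than 1.5 times in 3, 9 and 1 lists without replicates 1, 2 and 3, in 16 under the inside-only rule, in 8 within 3 kb, and in 0 to 6 under the other alternatives. The sets that left out 1 library each kept at least 98.79% of the 828 genes. This follows largely from the rule, as a region with peaks from all 3 libraries has peaks from any pair of them. Under the other alternatives the share kept ran from 27.1% (inside-only rule) to 100%, with 68.7% for the nearest gene only. The 100% was that of the 3 kb window, which keeps every member by its rule. No paired analysis was possible because no result comes from a test. Matching synonyms as well as symbols, an alternative chosen after seeing the data, put 167 members in at least 1 list, with higher counts in 22 lists and equal counts in 25. The precision of any fold is limited by a depth that is unknown.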
